A study of Mus musculus with 18 samples.

Results

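The genes described here encode the proteins that store, dock, release and recycle synaptic vesicles, measured in the brain of mice with a Brca1 deletion in the neural lineage. They are 29 genes, chosen by name, and all probe sets annotated to exactly one of them were taken: 49 probe sets of 22626 on a cortex A chip (25 genes), 29 probe sets of 22511 on a cortex B chip (15 genes) and 78 probe sets of 45037 in a table titled rest (all 29 genes). In the knockout animals Brca1 has 1 allele whose exons 5 to 13 are floxed, and 1 null allele, disrupted where exon 11 begins by a neo cassette in inverted orientation. Nestin Cre, active in neural progenitors, deletes the floxed exons. The wild-type animals are described by that word alone, and whether they carry Cre or a floxed allele is not stated. Tissue was taken at postnatal day 7. Total RNA was hybridised to 18 Affymetrix arrays, 3 knockout and 3 wild type in each of 3 tables: knockout and wild-type cortex on an A chip, knockout and wild-type cortex on a B chip, and knockout and wild-type samples titled rest, with the source P7 brain, on an array carrying the content of both chips. The labels do not define rest, and signal levels are compared only within a table.

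A presynaptic terminal stores neurotransmitter in vesicles, which transporters fill. Vesicles are tethered at the active zone by large scaffold proteins, and fuse when SNARE proteins on the vesicle (Vamp proteins) and on the plasma membrane (syntaxin and Snap25) zip together, with synaptotagmin as the calcium sensor and complexins as clamps and helpers. Nsf and its adaptors then take the SNARE complexes apart, and dynamin, amphiphysin and synaptojanin retrieve the membrane. In mouse cortex, synapses form in large numbers during the first weeks after birth, and transcripts of this machinery serve as a readout of synaptic maturation.

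No member probe set differed between knockout and wild type past the threshold (adjusted p under 0.05, limma with Benjamini and Hochberg adjustment over all probe sets tested) in any table. On the cortex A chip 0 of 42 tested member probe sets (25 genes) were called, where 3.02% of all tested probe sets were. On the cortex B chip the count was 0 of 21 (13 genes), against 0.281% of all, and among rest samples it was 0 of 66 (29 genes), against 0.313% of all. At an unadjusted p under 0.05 the members numbered 5 of 42, 4 of 21 and 5 of 66, which is 11.9%, 19.0% and 7.58%, against 15.7%, 7.39% and 10.5% of all probe sets in the same tables. The median log2 change of the member probe sets, knockout minus wild type, was -0.04, 0.07 and -0.02 in the A chip, B chip and rest tables, against -0.01, 0.00027 and 0.00095 over all probe sets tested. On the A chip 16 member probe sets had a positive and 26 a negative change, on the B chip 15 and 6, and among rest samples 31 and 35.

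The intervals show how large a change these arrays leave possible. The 95% interval of the change lay within 1.5-fold either way for 39 of 42 member probe sets of the A chip (79.9% of all tested there), for 13 of 21 of the B chip (50.0% of all) and for 57 of 66 of the rest samples (74.5% of all). It lay within 2-fold either way for 42, 20 and 64 of them. Groups that did not overlap were seen for 3 higher and 1 lower member probe set on the A chip (22.5% of all tested probe sets did not overlap in either direction), 3 higher and 1 lower for the B chip (15.9%), and 5 higher and 5 lower for rest samples (17.6%). Not every member probe set could be tested, since a probe set needed a signal on at least 2 arrays of each genotype: 5, 7 and 9 were blank on every array of the A chip, B chip and rest table, and 2, 1 and 3 had too few values.

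**Figure D1:**
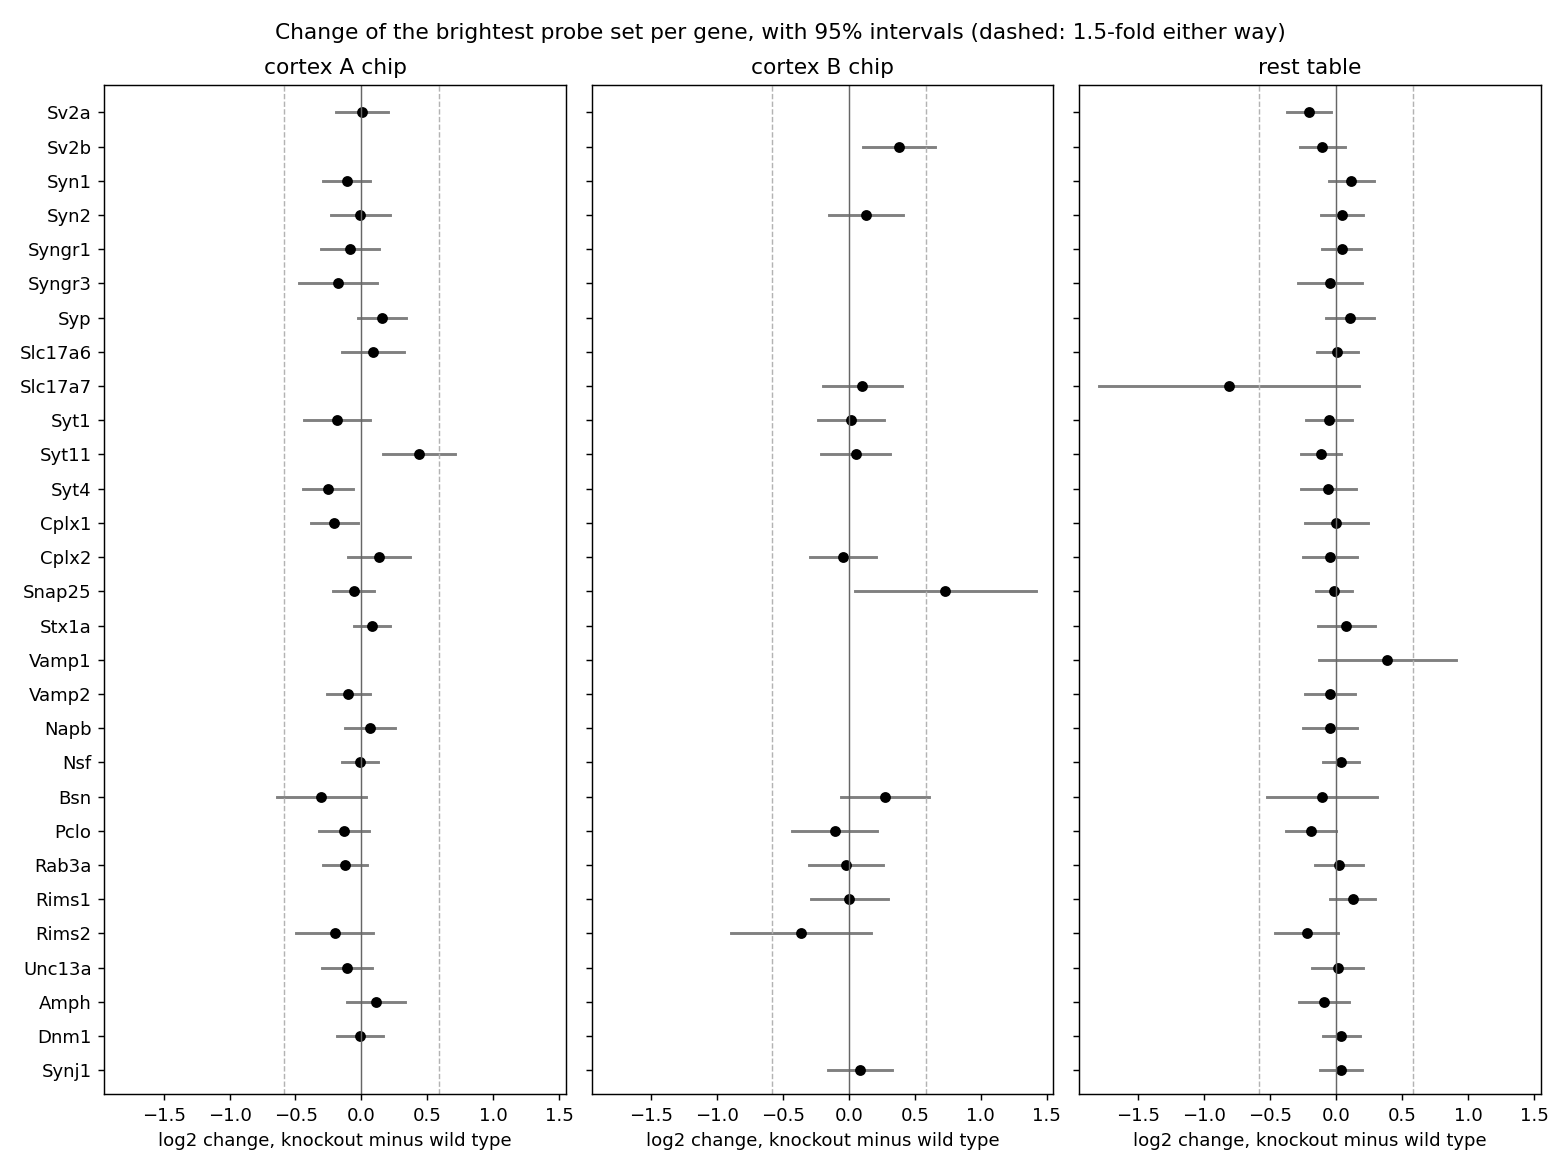
Change of each gene's brightest probe set listed on all 6 arrays of a table (points, log2, knockout minus wild type) with its 95% interval (lines), in the cortex A chip, the cortex B chip and the rest table, with dashed lines at 1.5-fold either way; a gene with no such probe set in a table has no point, and the probe set shown for Syt11 and some others differs between tables. Most intervals are narrow and cross 0, and the widest are those of Slc17a7 and Vamp1 in the rest table and of Snap25 and Rims2 on the B chip.

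**Figure D2:**
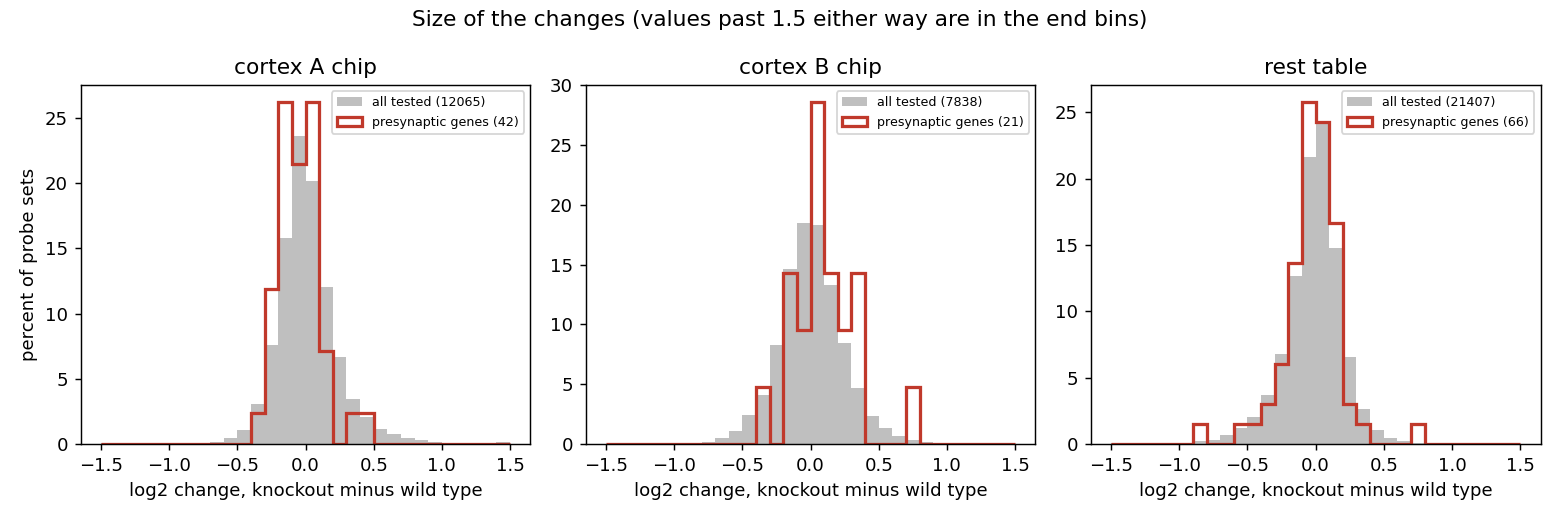
Log2 change (knockout minus wild type) of the tested member probe sets (red outline) and of all tested probe sets (grey), as a percent of each set, in the 3 tables. Members of the B chip lie more often above 0 (15 positive, 6 negative), and the median sizes of change were 0.106, 0.109 and 0.0981 for members against 0.117, 0.142 and 0.112 over all.

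Some facts of the arrays bear on these values. A signal was listed for 54.0% to 58.0% of A chip, 33.6% to 42.6% of B chip and 49.2% to 51.6% of rest table probe sets. The Y-linked Eif2s3y was listed on knockout arrays 1 and 2 of every table and on no other array, so genotype and sex are partly joined, and a fit with this pattern as a term compares knockout array 3 alone with the wild type. Called probe sets over the whole A chip were 278 higher and 86 lower. Marker genes of other cells moved with genotype in the cortex: the summed signal of 9 of 14 mural and meningeal genes was 10576, 9820.1 and 9234 in knockout cortex and 4269, 4046 and 4533 in wild-type cortex. That of 6 of 13 oligodendrocyte genes was 2115, 2734 and 2219 in knockout cortex and 4863, 4016 and 4759.8 in wild-type cortex. Sums of 8 of 11 microglial and macrophage genes were 3920 to 4483 in knockout and 2391 to 2689 in wild-type cortex. Those of 9 of 10 astrocyte genes were 8751 to 10559 in knockout and 7260 to 7832 in wild-type cortex. Those of 7 of 10 endothelial genes were 2742 to 3195 in knockout and 2095 to 2347 in wild-type cortex. Of 8 interneuron probe sets on the A chip 4 were called, all lower (median -0.62). The sums over 6 of 11 interneuron genes overlapped (2559 to 3068 in knockout, 2920 to 3140 in wild-type cortex). Rest sums of 13 of 14 mural and meningeal genes were 14130 to 14880 in the knockout and 6713 to 10940 in the wild type. In rest samples the sum of 10 of 13 oligodendrocyte genes was 5181, 8088 and 13756 in the knockout and 22461, 21476 and 21498 in the wild type. The sum of 18 of 18 general neuronal genes was 28388, 27001 and 27714 in knockout and 28909, 30484 and 28876 in wild-type cortex. That of 9 of 13 cortical excitatory genes, of which 0 were blank throughout, was 5138, 5093 and 5388 in knockout and 5952, 6105 and 6099 in wild-type cortex. Without Neurod1 it was 4954, 4907 and 5202 in knockout and 5662, 5894 and 5508 in wild-type cortex. In whole tissue fewer cells of a type and less RNA per cell cannot be told apart, and the part of these differences in the member values was not tested. Emx1, a dorsal forebrain gene, read 369 to 441 in knockout and 409 to 443 in wild-type cortex on the B chip, and was blank on all arrays of the rest table. Other cortical excitatory genes were listed there, unevenly by array. Neurod6 read 203 and 34.5 on knockout rest arrays 1 and 3, with array 2 blank, and 42.6, 208 and 36.9 in wild-type rest samples. Mef2c was listed on all 6 rest arrays. Brca1 itself, read by its 1 probe set listed on all 6 arrays, was 51.4, 44.0 and 61.4 in knockout and 38.0, 36.9 and 48.9 in wild-type cortex, so this probe set was not lower in the knockout; which exon it reads is not given.

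No gene for a vesicle membrane or surface protein was called. Synapsin 1 (Syn1) and synapsin 2 coat vesicles and hold them in the reserve pool, and Syn1 is X-linked. Syn1 read 1411, 1449 and 1643 in knockout cortex and 1587, 1531 and 1746 in wild-type cortex (log2 change -0.11, 95% interval -0.29 to 0.07, adjusted p = 0.57). Its rest values were 2581, 2586 and 2339 in knockout rest samples and 2193, 2520.4 and 2213 in wild-type rest samples (log2 change 0.12, 95% interval -0.05 to 0.29, adjusted p = 0.653). The genotypes overlapped in both, and in a fit that held the sex-marker pattern constant the Syn1 change was 0.02 in each table. The 4 Syn2 probe sets of the cortex chips that gave a test lay between -0.01 and 0.13.

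The Syn1 promoter is shown because this gene has served as a model of neuron-restricted transcription, and because its near-start sequence holds matches that few promoters hold. The 250 bases before the start of Syn1 (GRCm38.p6, chrX:20920919-20921168, minus strand, written 5' to 3', from RefSeq) carry in capitals the left part of the RE1 element, which the repressor REST reads outside neurons, and a cyclic AMP response element (CRE).
Syn1: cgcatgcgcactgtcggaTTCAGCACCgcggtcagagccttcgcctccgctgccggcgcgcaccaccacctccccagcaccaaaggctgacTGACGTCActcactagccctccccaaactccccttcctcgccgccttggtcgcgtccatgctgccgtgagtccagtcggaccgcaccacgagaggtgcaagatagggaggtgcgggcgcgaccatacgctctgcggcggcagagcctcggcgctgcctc
The RE1 part lies 232 to 224 bases and the CRE 159 to 152 bases before the start. Promoters of 24 of the 29 genes, 32 in all, were searched on both strands over 300 bases (250 before to 50 after the start) for 5 motifs. The RE1 left part TTCAGCACC was found in 2 of 32 member promoters, those of Syn1 and Unc13a (6.25%), against 0.371% of 32851 promoters. The RE1 right part GGACAG was in 21.9% of member promoters and 22.2% of all, the CRE TGACGTCA in 3.12% and 1.79%, the GC box GGGCGG in 56.2% and 35.7%, and TATAAA in 6.25% and 13.6%. The Syn1 promoter had no match to the RE1 right part in the bases searched. Member promoters had a median GC content of 61.2% and 18 CpG sites, against 52.7% and 7 over all promoters. These matches describe the letters only.

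Synaptophysin (Syp), an abundant vesicle membrane protein that is also X-linked, read 2186, 1985 and 2225 in knockout cortex and 1754, 2112 and 1888 in wild-type cortex (log2 change 0.15, 95% interval -0.03 to 0.33, adjusted p = 0.406). Rest values of Syp were 3381, 3242 and 2932 in knockout rest samples and 3138, 3089 and 2676 in wild-type rest samples (log2 change 0.10, 95% interval -0.08 to 0.28, adjusted p = 0.725). Knockout values reached higher than wild-type values in both tables but overlapped them. Holding the sex-marker pattern constant gave a Syp change of 0.22 in cortex and of -0.01 in rest, so its sign in the rest table turned. Synaptogyrin 1 (Syngr1), a relative of synaptophysin, had probe sets that disagreed. Its dim probe set read 129.7, 119 and 103 in knockout cortex and 87.6, 77.4 and 94 in wild-type cortex, without overlap (log2 change 0.38, 95% interval 0.08 to 0.68, adjusted p = 0.198). The bright one had a log2 change of -0.09 in cortex, with overlapping groups, and in the rest table both were near 0 (0.11 and 0.04). Synaptogyrin 3 had a log2 change of -0.18 in cortex and of -0.05 and 0.17 for its probe sets in the rest table.

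The SV2 proteins are transporter-like glycoproteins of the vesicle membrane. Sv2b, which is on the B chip and not on the A chip, read 5167, 5467 and 6544 in knockout cortex and 4319.7, 4854 and 3978 in wild-type cortex (log2 change 0.38, 95% interval 0.11 to 0.65, adjusted p = 0.434). Every knockout value lay above every wild-type value. This probe set had the lowest unadjusted p (0.00961) of the members on the B chip, and the second Sv2b probe set had a log2 change of 0.32. Among rest samples the same Sv2b probe sets gave -0.11 and -0.05, and the difference of the brighter one between tables (rest minus cortex) was -0.49 (95% interval -0.81 to -0.17, adjusted p = 0.456). Sv2a had a log2 change of 0.0037 in cortex. Its rest values were 1333, 1372 and 1318 in knockout rest samples and 1546, 1679 and 1430.1 in wild-type rest samples, all knockout values below all wild-type values (log2 change -0.21, 95% interval -0.37 to -0.04, adjusted p = 0.367).

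**Figure D3:**
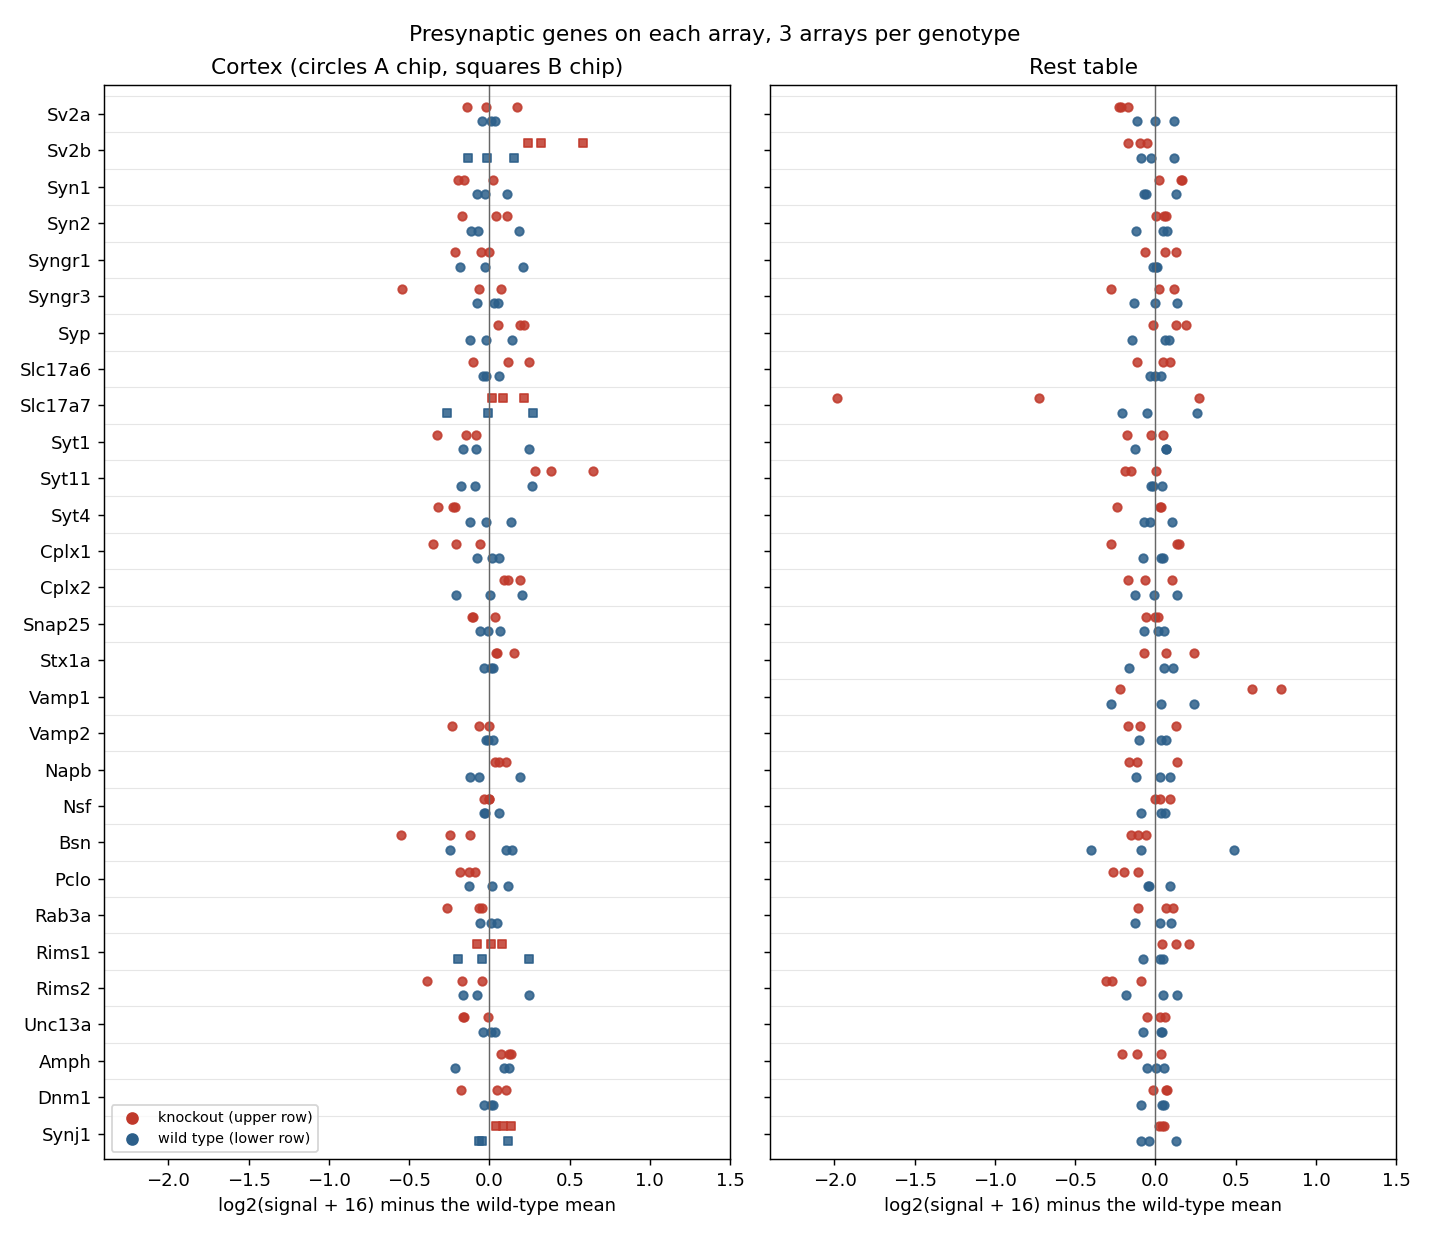
Log2(signal + 16) of each gene's brightest probe set listed on all 6 arrays, minus its wild-type mean, on every knockout array (red, upper row of each gene) and wild-type array (blue, lower row), in cortex (left; squares mark genes shown from the B chip) and in the rest table (right). Knockout and wild-type points of most genes lie over each other, Syt11 in cortex is shown by its _x_at probe set, and Slc17a7 has knockout arrays far apart in the rest table (562, 105 and 272).

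The vesicular glutamate transporters load glutamate into vesicles; Slc17a7 (VGLUT1) is the main form of mature cortex and cerebellar granule cells, and Slc17a6 (VGLUT2) prevails in thalamus and brainstem. In cortex, Slc17a7 read 4571, 4789 and 5240.4 in knockout cortex and 5456, 4503 and 3759.7 in wild-type cortex on the B chip (log2 change 0.10, 95% interval -0.19 to 0.40, adjusted p = 0.947). Slc17a6 read 372, 409 and 318 in knockout cortex and 332, 357 and 337 in wild-type cortex on the A chip (log2 change 0.09, 95% interval -0.15 to 0.32, adjusted p = 0.758). Both genes had overlapping groups in cortex. Among rest samples Slc17a7 read 562, 105 and 272 in knockout rest samples and 445, 556 and 398 in wild-type rest samples (log2 change -0.81, 95% interval -1.80 to 0.17, adjusted p = 0.574), and Slc17a6 read 2349, 2421 and 2099 in knockout rest samples and 2329, 2269.6 and 2214 in wild-type rest samples (log2 change 0.01, 95% interval -0.15 to 0.17, adjusted p = 0.981). This Slc17a6 probe set was nearly equal on all 6 rest arrays, and Slc17a7 was low on knockout array 2 and high on knockout array 1. A dimmer Slc17a6 probe set varied more, at 835, 1031 and 1116 in knockout and 979, 1117 and 827 in wild-type rest samples (log2 change 0.03). The log2 ratio of Slc17a7 to Slc17a6, which the design allows in the rest table only, averaged -3.08 ± 1.16 in knockout and -2.26 ± 0.228 in wild-type rest samples (SD, n = 3 each; exact two-sided permutation p = 0.3, with 0.1 the smallest possible). The ratio difference was -0.82, and -0.20 without knockout array 2; the Slc17a7 change was -0.23 without that array and -1.36 without knockout array 1.

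Regional markers also varied among the rest arrays. Mef2c, a transcription factor gene of forebrain neurons, read 1247, 540.2 and 706 in knockout and 1169, 900.1 and 739 in wild-type rest samples in its brightest probe set, lowest on the knockout array where Slc17a7 was lowest. A dimmer Mef2c probe set was lowest on knockout array 3 (96.9), and the others on knockout array 2. Bcl11b, also of the cortical excitatory list, read 453, 257 and 299 in knockout and 471, 571 and 226 in wild-type rest samples in its brightest probe set, lowest on wild-type array 3. Pcp2, a Purkinje cell gene, read 51.9, 163 and 1171 in knockout and 280.4, 121 and 1240.0 in wild-type rest samples. The summed signal of 7 of 13 cortical excitatory genes was 3698, 2476 and 3066 in knockout and 4166, 3590.1 and 5387 in wild-type rest samples. That of 7 of 15 hindbrain and cerebellar genes was 7864, 7607 and 10569 in knockout and 8478, 8157 and 13087 in wild-type rest samples. Of the cortical excitatory sum, Neurod1, which cerebellar granule cells also express, made up 121, 196 and 583 in knockout and 716, 322 and 2396 in wild-type rest samples. Without it, a choice made after its values were seen, the sum was 3576, 2281 and 2483 in knockout and 3450.2, 3268 and 2991 in wild-type rest samples. The arrays thus differ within a genotype in regional genes, and their part in the Slc17a7 values was not tested.

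**Figure D4:**
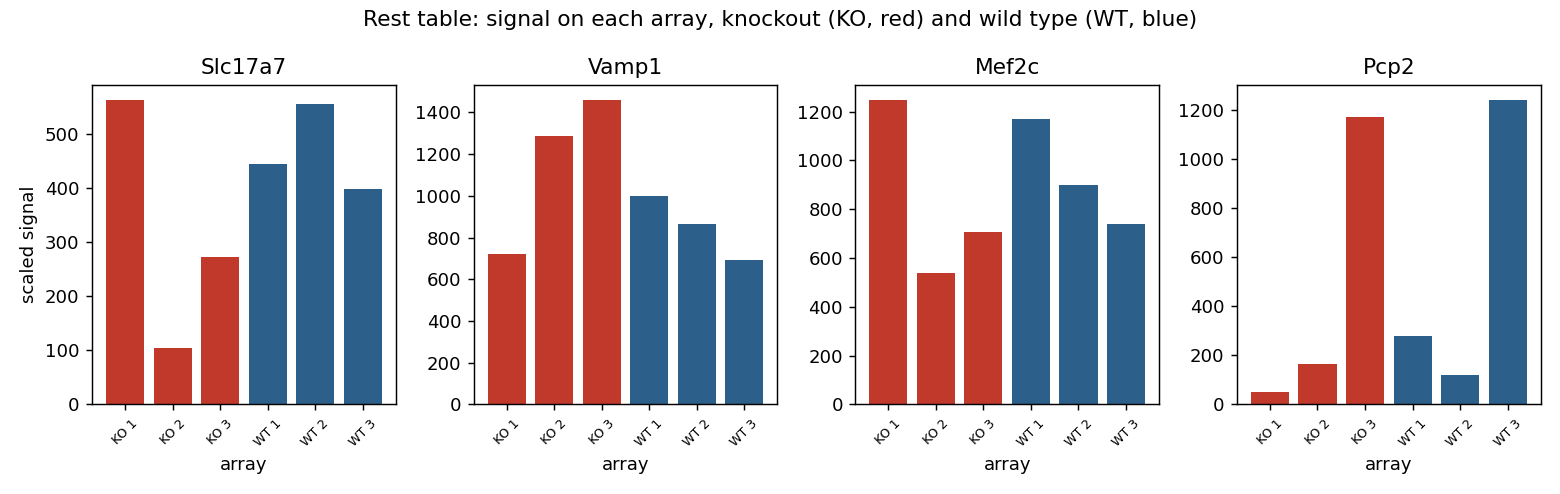
Scaled signal on each array of the rest table for Slc17a7, Vamp1, Mef2c and Pcp2 (bars from 0, 3 knockout arrays in red on the left, 3 wild-type arrays in blue on the right; each panel has its own axis). Slc17a7 and the brightest Mef2c probe set, the one drawn, are both lowest on knockout array 2 (105 and 540.2), and Pcp2 is high on array 3 of each genotype (1171 and 1240.0).

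A synaptotagmin probe set, of Syt11, had the lowest unadjusted p of the members on the A chip (0.00481) and in the rest table (0.000497), while on the B chip the lowest of a synaptotagmin was 0.511. Synaptotagmin 1 (Syt1), the calcium sensor of fast release, read 577, 656 and 686 in knockout cortex and 686, 869 and 649 in wild-type cortex (log2 change -0.19, 95% interval -0.44 to 0.06, adjusted p = 0.478), with overlapping groups. Its brightest probe set on the B chip had a log2 change of 0.02. The same probe set read 5109, 4851 and 4363 in knockout rest samples and 5163, 5167 and 4517 in wild-type rest samples (log2 change -0.05, 95% interval -0.23 to 0.12, adjusted p = 0.874). The A chip probe set read 1098, 1136 and 1157 in knockout and 1064, 924 and 1068 in wild-type rest samples, without overlap (log2 change 0.15, 95% interval -0.03 to 0.33, adjusted p = 0.558). Its rest minus cortex difference was 0.34 (95% interval 0.02 to 0.65, limma adjusted p = 0.439). The remaining Syt1 probe sets had 0.15 and -0.39 in rest. Syt4, a synaptotagmin that does not bind calcium in the usual way through its first C2 domain, read 734, 687 and 742 in knockout cortex and 851, 793 and 949.7 in wild-type cortex (log2 change -0.25, 95% interval -0.44 to -0.07, adjusted p = 0.164). All knockout values of Syt4 lay below all wild-type values in cortex, and in the rest table its log2 change was -0.06.

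Syt11, a synaptotagmin that does not act as a calcium sensor, had 1 of its 5 probe sets whose groups stood apart in opposite directions in cortex and rest. That probe set, the one ending in _x_at, read 1424, 1528 and 1838 in knockout cortex and 1032, 1408 and 1098 in wild-type cortex (log2 change 0.44, 95% interval 0.16 to 0.71, adjusted p = 0.0976). Its rest values were 1982, 1838 and 1971 in knockout rest samples and 2378, 3268 and 2839.7 in wild-type rest samples (log2 change -0.54, 95% interval -0.77 to -0.30, adjusted p = 0.0788). Groups did not overlap in either table, with the knockout above the wild type in cortex and below it in rest. The difference between the tables, rest minus cortex, was -0.97 (SE 0.181, 95% interval -1.36 to -0.58, limma adjusted p = 0.0795); 0 of 42 members and 0.0502% of all 11959 shared probe sets were called in this contrast, and 5 members had an unadjusted p under 0.05, against 10.5% of all. Leaving out wild-type cortex array 2 gave 0.57 in cortex (adjusted p = 0.0246) and -1.11 for the difference (adjusted p = 0.0327), and leaving out wild-type rest array 1 gave -0.65 in the rest table (adjusted p = 0.0396). Leaving out any other array gave no call of this probe set, and some of these fits made its change smaller. Over all fits without 1 array it was 0.33 to 0.57 in cortex and -0.65 to -0.43 in rest. The difference was -1.11 to -0.86.

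The other 4 Syt11 probe sets had smaller changes, with negative sign in the rest table for each and, on the B chip, positive sign in cortex. In cortex their log2 changes were -0.04 and -0.14 on the A chip and 0.05 and 0.06 on the B chip, and in the rest table -0.01, -0.11, -0.11 and -0.22. Their rest minus cortex differences were 0.03, 0.02, -0.17 and -0.28, with limma adjusted p of 0.785 or more. The last of these read 2286, 2436 and 2168 in knockout rest samples and 2456, 3085 and 2539 in wild-type rest samples, without overlap (log2 change -0.22, 95% interval -0.43 to -0.02, adjusted p = 0.436). In Affymetrix naming the ending _x_at marks a probe set with probes that can also bind other transcripts, so which transcript gave its opposite changes cannot be told from these values.

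**Figure D5:**
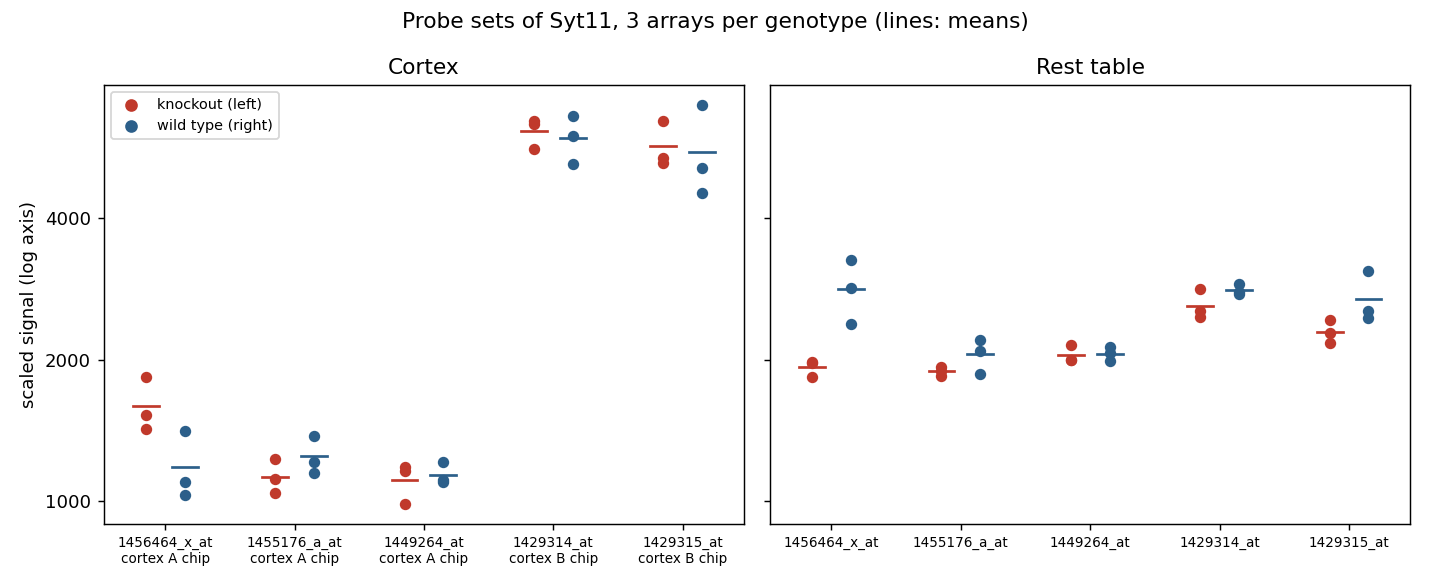
Scaled signal (log axis) of the 5 Syt11 probe sets on each knockout array (red, left of each pair) and wild-type array (blue, right), in cortex (A or B chip as marked) and in the rest table, with lines at the means. Groups of the _x_at probe set (leftmost) stand apart in opposite directions in the 2 panels, and of the others the rightmost alone separates, among rest samples; heights of different probe sets are not comparable.

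No SNARE gene was called in any table. Snap25, a SNARE of the plasma membrane, read 1647, 1819 and 1657 in knockout cortex and 1771, 1862 and 1707 in wild-type cortex (log2 change -0.06, 95% interval -0.21 to 0.09, adjusted p = 0.75). Its rest values were 2847, 2736 and 2876 in knockout rest samples and 2712, 2879.9 and 2956 in wild-type rest samples (log2 change -0.01, 95% interval -0.15 to 0.12, adjusted p = 0.961). These are among the narrowest intervals of the set, and the groups overlapped. A dim second Snap25 probe set on the B chip read 102, 155 and 122 in knockout cortex and 31.5, 94.5 and 100.2 in wild-type cortex (log2 change 0.73, 95% interval 0.05 to 1.42, adjusted p = 0.651). Its groups did not overlap, with 1 wild-type array far below the other two, and without that array the log2 change was 0.32.

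Syntaxin 1A (Stx1a), the partner of Snap25 in the plasma membrane, read 2334, 2161 and 2175 in knockout cortex and 2116, 2134 and 2052 in wild-type cortex (log2 change 0.08, 95% interval -0.06 to 0.22, adjusted p = 0.604). Its knockout values lay just above its wild-type values there. Among rest samples it read 2462, 1984 and 2182 in knockout rest samples and 2248, 2164 and 1861 in wild-type rest samples, with overlap (log2 change 0.08, 95% interval -0.14 to 0.29, adjusted p = 0.841). The other Stx1a probe set had -0.17 in cortex and 0.27 in rest. Vamp2 (synaptobrevin 2), the main vesicle SNARE of forebrain, read 1694, 1907 and 1995 in knockout cortex and 2029, 1986 and 1968 in wild-type cortex (log2 change -0.10, 95% interval -0.26 to 0.06, adjusted p = 0.576). In rest its values were 3031, 2593 and 2465 in knockout rest samples and 2902, 2839 and 2587 in wild-type rest samples (log2 change -0.05, 95% interval -0.24 to 0.15, adjusted p = 0.905). The groups of Vamp2 overlapped in both tables.

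Vamp1, the vesicle SNARE that prevails in brainstem and spinal cord, was dim in cortex (log2 change 0.04, blank on 1 wild-type array). Among rest samples its brighter probe set read 721, 1288 and 1459 in knockout rest samples and 999, 864 and 692 in wild-type rest samples (log2 change 0.39, 95% interval -0.13 to 0.91, adjusted p = 0.618), high on knockout arrays 2 and 3 and not on knockout array 1. A dimmer probe set was blank on knockout array 1 and read 266 and 304 on the other two, against 198, 123 and 184 in wild-type rest samples (log2 change 0.73, 95% interval 0.28 to 1.18, adjusted p = 0.236). The fit used the 5 arrays with a signal, and with the blank set to the 5th percentile of its array the change was -0.09.

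Complexins bind the assembled SNARE complex. Complexin 1 (Cplx1) read 2395, 2163 and 2661 in knockout cortex and 2798, 2620.1 and 2889.6 in wild-type cortex in its brightest probe set (log2 change -0.21, 95% interval -0.39 to -0.02, adjusted p = 0.247), with overlap at 1 array of each genotype. All 3 Cplx1 probe sets had negative changes in cortex (-0.11, -0.20 and -0.21), and in the rest table they were 0.01, -0.08 and 0.0028. Complexin 2 (Cplx2) had a log2 change of 0.13 on the A chip and of -0.17 and -0.04 on the B chip. Among rest samples 1 Cplx2 probe set read 696, 359 and 533 in knockout rest samples and 763, 717 and 680.0 in wild-type rest samples (log2 change -0.48, 95% interval -0.91 to -0.05, adjusted p = 0.421). It was lowest on knockout array 2, the array where Slc17a7 and the brightest Mef2c probe set were lowest, and without that array its change was -0.23. The other Cplx2 probe sets in rest had -0.13 and -0.04.

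Nsf is the ATPase that takes spent SNARE complexes apart, with Napb (beta-SNAP) as an adaptor. One Nsf probe set read 805, 1129.9 and 882 in knockout cortex and 1069, 1159.9 and 1142 in wild-type cortex (log2 change -0.27, 95% interval -0.52 to -0.02, adjusted p = 0.274), with overlapping groups. The other Nsf probe set in cortex had a log2 change of -0.01 (95% interval -0.15 to 0.12), and in the rest table the 2 gave 0.13 and 0.04. The ending _s_at marks a probe set whose probes match more than 1 transcript. Nsf and Vamp2 lie on chromosome 11, as does Brca1. The 5 Napb probe sets lay between 0.0049 and 0.08 in cortex and between -0.05 and 0.13 in the rest table.

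Most active zone probe sets on the A chip had negative changes, and none passed the test. Bassoon (Bsn) and Piccolo (Pclo) are giant scaffold proteins of the active zone, Rims1 and Rims2 tether vesicles and calcium channels there, Unc13a primes vesicles for fusion and Rab3a is the vesicle GTPase that Rims proteins bind. Of 7 tested active zone probe sets on the A chip, 6 had negative changes (median -0.13, against -0.01 over all probe sets), 0 were called and 0 had an unadjusted p under 0.05. Bsn read 155, 112 and 142 in knockout cortex and 185, 142 and 189 in wild-type cortex (log2 change -0.30, 95% interval -0.64 to 0.03, adjusted p = 0.373), with overlap. On the B chip a brighter Bsn probe set had a log2 change of 0.27, so the Bsn probe sets disagreed in sign. Of 6 active zone probe sets on the B chip 3 were negative, and of 13 tested with rest samples 9 were (median -0.11). Pclo read 576, 516 and 541 in knockout rest samples and 603, 662 and 602 in wild-type rest samples (log2 change -0.19, 95% interval -0.38 to 0.0023, adjusted p = 0.483), with all knockout values below all wild-type values. The other Pclo probe sets in rest had -0.27 and 0.07. Rab3a, Unc13a and Rims1 lay between -0.13 and 0.13 with every tested probe set in every table, and Rims2 between -0.36 and -0.02.

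Of the genes that retrieve vesicle membrane, synaptojanin 1 (Synj1), a lipid phosphatase that promotes the shedding of clathrin coats, read 1011, 1036 and 959 in knockout cortex and 846, 824 and 645 in wild-type cortex in 1 probe set on the B chip (log2 change 0.38, 95% interval 0.07 to 0.69, adjusted p = 0.544). Its knockout values lay above all wild-type values, and the other Synj1 probe sets there had 0.30 and 0.09. With rest samples the 3 Synj1 probe sets had 0.08, 0.17 and 0.04. Dynamin 1 (Dnm1), the GTPase that cuts vesicles from the membrane, had -0.04 and -0.0092 in cortex and 0.09 and 0.04 in rest. Amphiphysin (Amph), which recruits dynamin, had 0.11 in cortex and -0.09 in rest.

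The effect of genotype did not differ past the threshold between rest and cortex for any member. Besides Syt11, the lowest unadjusted p-values of the rest minus cortex A chip difference were those of the _s_at probe set of Nsf (0.40, 95% interval 0.10 to 0.69, limma adjusted p = 0.304), the Cplx2 probe set of the A chip (-0.61, interval -1.14 to -0.09, adjusted p = 0.388) and the second Stx1a probe set (0.43, interval 0.06 to 0.80, adjusted p = 0.395). Against the B chip 0 of 20 members and 0.0% of 6563 shared probe sets were called by limma, and 1 member (Sv2b, above) had an unadjusted p under 0.05, against 7.94% (521) of all. The Slc17a7 difference between rest and the B chip was -0.92 (95% interval -1.97 to 0.14, adjusted p = 0.666).

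Other synaptic genes were read beside the members. Of 72 other presynaptic genes, 49 were tested on the A chip, where 1 rose and 1 fell (2 of 80 probe sets, median 0.0075; 14, or 17.5%, at an unadjusted p under 0.05, against 15.7% of all probe sets): Syt17, a synaptotagmin relative, rose by 0.54 (adjusted p = 0.0422) and Synpr (synaptoporin), a vesicle protein, fell by 0.77 (adjusted p = 0.0101). On the B chip 0 of 27 were called (43 probe sets, 6 or 14.0% at an unadjusted p under 0.05, against 7.39% of all, median -0.09), with Syt7 at 0.52 (adjusted p = 0.102) and Syn3 at -0.51 (adjusted p = 0.38). With rest samples 0 of 65 were called (141 probe sets, 19 or 13.5% at an unadjusted p under 0.05, against 10.5% of all, median 0.01), with Dnm3 at -0.58 (adjusted p = 0.12) and Syt2 at 0.59 (adjusted p = 0.14). Among postsynaptic genes Gria1, a subunit of AMPA-type glutamate receptors, fell by 0.50 in cortex (adjusted p = 0.00699), the only one called of 11 tested on the A chip (18 probe sets, median -0.15, 4 or 22.2% at an unadjusted p under 0.05). On the B chip 0 of 13 postsynaptic genes and with rest samples 0 of 18 were called (1 of 25 and 6 of 45 probe sets, or 4.0% and 13.3%, at an unadjusted p under 0.05), with Gria1 at -0.78 in the rest table (adjusted p = 0.16). Of 18 general neuronal genes 1 fell on the A chip, Mapt, which encodes tau (-0.33, adjusted p = 0.0239; 8 of 31 probe sets, or 25.8%, at an unadjusted p under 0.05), and 0 were called in the rest table (6 of 40 probe sets at an unadjusted p under 0.05, against 10.5% of all). On the B chip 0 of 6 were called (2 of 9 probe sets, or 22.2%, at an unadjusted p under 0.05, against 7.39% of all). A Mapt probe set there had a change of 0.17 (limma adjusted p = 0.947).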

How the data were processed

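The authors deposited linear intensity values for probe sets, made with MAS5 per the submitters' processing notes (version and settings not given in the sources used here), and left many values blank. RNA was extracted with TRIZOL, per the labels. Within a table, arrays were brought to the same trimmed mean (2% off each end), computed from probe sets with 6 values, and log2(signal + 16) was taken. Knockout minus wild type was fitted per table in limma 3.58.1 under R 4.3.3 (lmFit, eBayes with an intensity trend), over probe sets listed on at least 2 arrays of each genotype (12065, 7838 and 21407), with Benjamini and Hochberg adjustment over the table, and called at an adjusted p under 0.05. Differences between tables were interactions in joint fits, with all arrays taken as independent. The methods were tested on simulated data. Probe sets took symbols from the array annotation; 20380, 14661 and 34945 have 1 gene. A Vamp1 probe set that names several genes was left out. Values of every array are given for the 6 member probe sets of lowest p on the A chip and in the rest table, the 3 of lowest p on the B chip, and 8 core genes. Members and lists were chosen with earlier results of these data known. The design text gives 3 animals of each genotype for cortex. Whether rest arrays come from separate animals is not stated, so p-values there may measure technical spread. Eif2s3y was listed on knockout rest arrays 1 and 2 and not on array 3, so these 3 arrays do not all come from 1 animal. Alternatives covered scaling, offset, blanks, eBayes settings, a replicate block, a sex-marker term and leaving out each array. The number of arrays limits the precision.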

Additional observations from a re-analysis of the deposited data

Results flagged for a closer look

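The Syt11 probe set ending in _x_at was singled out because the genotype effect ran in opposite directions in the 2 tissues: every knockout array was above every wild-type array in cortex and below every wild-type array in the rest table. The difference, rest minus cortex, was -0.97 on the log2 scale, and the test of this difference did not pass (limma adjusted p = 0.0795 over 11959 probe sets). Over its alternatives the difference lay between -1.15 and -0.86. In no other Syt11 probe set did the groups stand apart in both tables; both B chip probe sets had opposite signs in the 2 tables (0.05 and 0.06 in cortex, -0.11 and -0.22 in rest).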

How the results depend on the processing

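No member was called under any change of scaling, offset, blanks, probe set filter or eBayes setting, or with the sex-marker term. Leaving out 1 array gave 0 to 1 called member on the A chip, in the rest table and for the rest minus A chip difference, in each case the _x_at probe set of Syt11 (without wild-type array 2 of cortex, wild-type array 1 of rest, and wild-type array 2 of cortex). The B chip median of the members was 0.13 with the sex-marker term, and 0.050 to 0.13 when 1 array was left out (highest without wild-type array 1). The Vamp1 probe set with a blank turned to -0.089 with blanks at the 5th percentile. Of 558 alternative values of 31 single probe sets, 555 kept their side of the threshold, and 18 had the opposite sign, of which 17 were of probe sets with an unadjusted p of 0.05 or more.

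With the replicate number as a block across genotypes, members called stayed at 0 in all 3 tables, and the median member changes were -0.04, 0.07 and -0.02. The calls over all probe sets were 294, 12 and 143 with this block and 364, 22 and 67 without it. For both differences the block was another, a random one joining cortex and rest arrays of the same genotype and number. Members called stayed at 0 there too. To look for pairing, each array was taken as its deviations from the mean of its genotype, probe set by probe set. The deviations of same-numbered knockout and wild-type arrays correlated by 0.0093, 0.019 and -0.0088 (A chip), 0.159, 0.072 and 0.141 (B chip) and 0.023, 0.067 and 0.251 (rest). With so few arrays these values cannot settle whether the numbers pair the samples. By these deviations, every knockout array correlated best with its own number on the B chip, as did knockout arrays 2 and 3 in the rest table, and none did on the A chip. The transporter ratio difference was -0.82 with the replicate block (exact sign-flip permutation p = 0.5). With 3 pairs this test cannot give a p under 0.05, so it decides nothing. The ratio difference was -0.83 to -0.69 or -0.88 with other probe sets and offsets, and -1.35 to -0.20 when 1 array was left out.

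Calls over the whole tables moved as follows: on the A chip to 83 with the sex-marker term and 185 to 330 without 1 array; on the B chip to 1 with blanks filled, 9 without a trend, 38 with probe sets listed on 1 array of each genotype, and 9 to 25 without 1 array; in the rest table to 23, 11 and 122 under the same settings, 10 with the sex-marker term, and 13 to 69 without 1 array; for the rest minus A chip difference to 0 with the sex-marker term, 3 with an offset of 64 or without a trend, and 3 to 28 without 1 array; and for the rest minus B chip difference to 0 to 4 without 1 array. The causes were not tested.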
